A study of Mus musculus with 5 samples.

Results

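The transcripts described here are those of 7 genes of antibody-producing cells, read in whole hearts of lupus-prone and healthy mice. Igha, Ighm, Jchain and Mzb1 serve as plasma cell transcripts, and Cd79a, Cd79b and Ms4a1 as B cell transcripts. Members were all probe sets whose platform annotation gives exactly one of these symbols, which were 20 of 45037 probe sets other than controls, for 7 of the 18193 genes with a symbol of their own. Of these, 16 belong to the plasma cell genes (3 of Igha, 11 of Ighm, 1 of Jchain and 1 of Mzb1) and 4 to the B cell genes (1 of Cd79a, 1 of Cd79b and 2 of Ms4a1). A further 4 probe sets carry Ighm together with other symbols and were not used.

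Female NZB_W mice, the F1 cross of the NZB and NZW strains, develop a lupus-like disease with immune complexes in the kidney. The 3 NZB_W animals had moderate kidney injury on the Austin score, carried the label lupus nephritis and were 12 to 15 weeks old. The 2 controls were healthy female NZW mice of matched age without kidney injury, that is, one parental strain of the cross, and no NZB animal or NZB_W animal without nephritis was analysed here. None of the mice was treated, and all hearts were bled and perfused with saline before RNA was taken. Strain and disease therefore differ together and cannot be told apart in any comparison between the groups.

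A B cell carries membrane immunoglobulin together with the signalling chains Cd79a and Cd79b, and most mature B cells display Ms4a1, the surface protein CD20. On becoming an antibody-secreting plasma cell it switches to making soluble heavy and light chains in bulk and loses much of its B cell surface programme, including CD20. Ighm encodes the heavy chain constant region of IgM, the first class made, and is read in B cells as well as in plasma cells. Igha encodes that of IgA, the class that dominates at mucosal surfaces. Jchain encodes the joining chain that links IgA dimers and IgM pentamers, and Mzb1 encodes an endoplasmic reticulum protein that helps in assembling and secreting immunoglobulin. NZB_W mice are known for B cell overactivity and autoantibodies.

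Start-site sequences were available for 2 of the 7 members, and both are shown. They belong to Jchain, the member with the largest difference between the groups, and to Cd79a, a B cell member that was dim on all arrays. Each runs from 250 bases before to 50 bases after the RefSeq start, on GRCm38.p6, printed 5′ to 3′ on the gene's strand. Capitals mark E boxes (CANNTG, a palindromic pattern and so the same on both strands), the pattern recognised by the E proteins that act in B cell development.
Jchain, chr5:88527848-88528147, minus strand: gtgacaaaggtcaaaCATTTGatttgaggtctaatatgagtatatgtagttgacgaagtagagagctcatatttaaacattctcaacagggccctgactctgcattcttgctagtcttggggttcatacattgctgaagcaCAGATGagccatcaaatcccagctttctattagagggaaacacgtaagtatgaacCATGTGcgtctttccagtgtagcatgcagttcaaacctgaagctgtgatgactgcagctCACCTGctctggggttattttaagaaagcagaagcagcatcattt
Cd79a, chr7:24897247-24897546, plus strand: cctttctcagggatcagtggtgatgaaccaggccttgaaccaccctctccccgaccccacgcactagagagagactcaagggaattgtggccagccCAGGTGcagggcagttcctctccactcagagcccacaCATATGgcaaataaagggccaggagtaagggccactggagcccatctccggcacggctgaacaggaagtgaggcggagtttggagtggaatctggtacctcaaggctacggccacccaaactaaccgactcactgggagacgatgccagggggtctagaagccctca
The Jchain window holds 4 E boxes and the Cd79a window 2, and 72.3% of all 32851 windows of the table hold at least 1 (median 1). The octamer ATGCAAAT, searched on both strands, is in neither window and in 1.74% of all. The Ets-type letters AGGAAGTG, searched on both strands, occur 1 time in the Cd79a window, not in the Jchain window, and in 4.07% of all. These matches describe the letters only.

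Values are the deposited log2 expression levels, 1 per probe set and array, so a difference of 1 is a doubling. Tested probe sets exceeded the median of their array (4.62 to 4.68 over the 5 arrays) on at least 2 arrays, and the number of arrays limits every value. Correlations between arrays over the tested probe sets ran from 0.973 to 0.993. On the first principal component NZB_W array 3 lay at 42.7 and the other arrays between -18.1 and -5.85. For beta-actin, whose control probe sets at both transcript ends bear on RNA integrity, the 5′ signal lay under the 3′ signal, with a difference of -1.31 for NZB_W array 3, -1.19 for NZW array 2 and -0.89 to -0.88 for the rest. The 10 cardiomyocyte markers were above the median on all arrays, with mean levels of 13.66 to 13.76. Titles call the arrays biological replicates.

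Brightness differed between the members and, for Ighm, between the probe sets of 1 gene. All 3 Igha probe sets, 4 of the 11 Ighm probe sets and the Mzb1 probe set were above the array median on all 5 arrays, and Jchain on 4. None of the 4 B cell probe sets was above it on all arrays. Cd79b exceeded it on NZB_W array 1 alone, and Cd79a and both Ms4a1 probe sets on no array. Of the 20 members, 8 were above the median on all 5 arrays. Of all probe sets, 47.3% were above it on all 5 arrays and 50.7% on at least 2. Thus 9 of the 20 members were tested, all of them plasma cell transcripts.

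**Figure D1:**
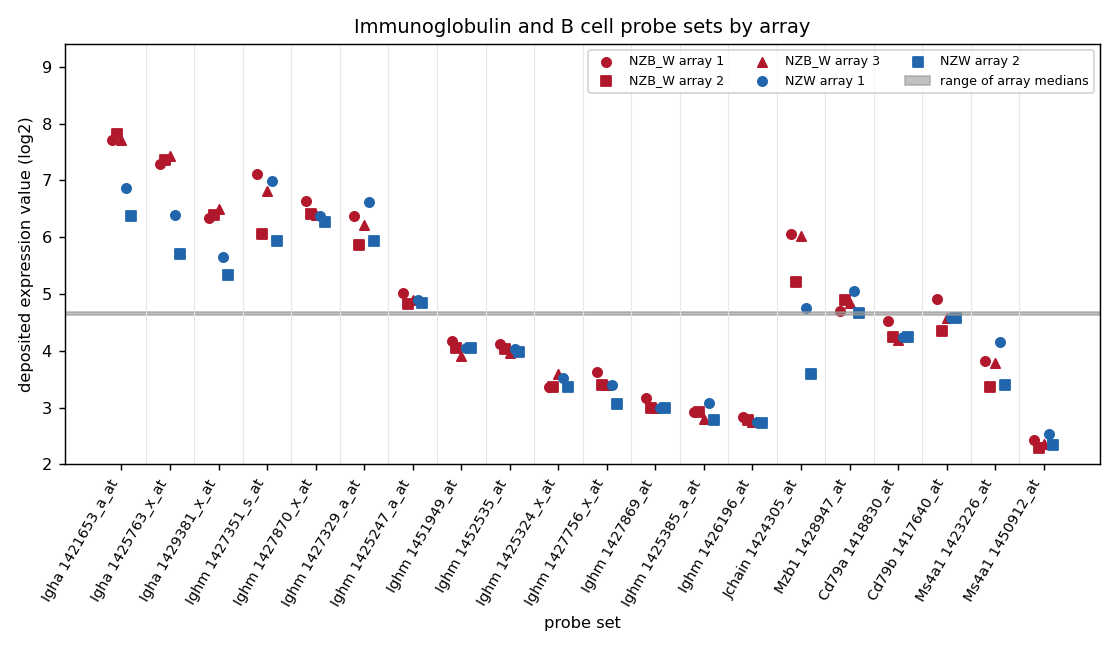
Deposited log2 value (vertical axis) of each of the 20 member probe sets (horizontal axis) on the 5 arrays, NZB_W in red and NZW in blue, with the marker shape giving the array number and the grey band the range of array medians. The 3 Igha probe sets and Jchain show all red points above both blue points, while Cd79a, Cd79b and Ms4a1 lie around or under the grey band.

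Igha, the IgA heavy chain constant region, was higher in NZB_W hearts on each of its 3 probe sets, by 0.92 to 1.31 on the log2 scale. Jchain was higher by 1.58, while Mzb1 and the 4 tested Ighm probe sets differed by -0.12 to 0.20. None of the 9 tested members passed the threshold of 0.05 after Benjamini-Hochberg adjustment over all tested probe sets in limma (adjusted p from 0.368 to 0.965), against 5 of 22819 probe sets overall (0.0219%). At an unadjusted p under 0.05, 4 of the 9 (the 3 of Igha and Jchain) were higher and 0 lower, against backgrounds of 2.27% and 2.98%. In 5 of the 9 all NZB_W values lay above both NZW values, against 6.96% of tested probe sets, and in 0 below both (9.66%). These 5 were the 3 of Igha, Jchain and 1 of Ighm, and since the Igha probe sets read one gene they are not separate pieces of evidence. In RNA of whole hearts, more cells of a type and more RNA per cell cannot be told apart.

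The brightest Igha probe set, 1421653_a_at, gave 7.71, 7.81 and 7.71 in the 3 NZB_W hearts, in the order of their arrays, while the 2 NZW hearts gave 6.87 and 6.37. The NZB_W values lay close together and all above both NZW values. The means were 7.75 ± 0.058 (SD, n = 3) and 6.62 ± 0.36 (SD, n = 2), a log2 difference of 1.13 (SE 0.16, 95% interval 0.70 to 1.57), or 2.19-fold. Its adjusted p in limma was 0.430, and 0.443% of tested probe sets had a larger difference in the same direction. The second probe set, 1425763_x_at, read 7.28, 7.35 and 7.43 in NZB_W and 6.39 and 5.70 in NZW. Again no NZB_W array reached down to the NZW range, and the difference was 1.31 (SE 0.22, 95% interval 0.73 to 1.89, limma adjusted p = 0.526), or 2.48-fold. The third, 1429381_x_at, read 6.34, 6.40 and 6.50 in NZB_W and 5.65 and 5.34 in NZW, which shows the same separation at a lower brightness. Its difference was 0.92 (SE 0.12, 95% interval 0.61 to 1.23, limma adjusted p = 0.368), or 1.89-fold. On all 3 probe sets NZW array 2 was the lowest array and the NZW pair was spread more widely than the NZB_W arrays. Probe sets ending in _x_at hold probes that can also match related sequences, which within immunoglobulin genes limits how firmly they can be assigned to one class. Probe sequences were not used here, and whether the probes of the 3 Igha probe sets match the NZB and NZW alleles equally, which bears on all 3 fold differences, was not tested.

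NZB_W array 3 was the highest array on the 2 Igha probe sets ending in _x_at, by a narrow margin, and NZB_W array 2 on 1421653_a_at. With NZB_W array 3 left out the 3 Igha differences were 1.15, 1.27 and 0.87, and without both NZB_W array 3 and NZW array 2 they were 0.90, 0.93 and 0.72. Without NZW array 2 alone they were 0.88, 0.97 and 0.77. The 12 macrophage markers had a median difference of 0.61, all above 0, and each was highest on NZB_W array 3 except Cd14, which read 8.34, 8.14 and 8.02 in NZB_W. One of them, Itgam, was above the median on the 3 NZB_W arrays only, so it entered the test through the group where it is high. Relative to each gene's mean, their median stood at 0.80 on that array, at -0.017 to -0.00068 on the other NZB_W arrays, and at -0.11 and -0.57 on the NZW arrays.

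The 3 genes whose profile over the 5 arrays lay closest to that of Igha 1421653_a_at, each profile centred on its own mean, were Cytip, Daam1 and Zfp24. Their root mean square differences from it over 5 arrays were 0.097, 0.10 and 0.10 log2 units. Cytip, a cytohesin-binding protein of leukocytes, read 6.39, 6.35 and 6.15 in NZB_W and 5.38 and 4.76 in NZW on probe set 1435697_a_at. Daam1, a formin that organises actin, differed by 0.94 and Zfp24, a zinc finger protein, by 1.03, and neither passed the test (limma adjusted p = 0.526 and 0.419).

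Jchain, which holds polymeric IgA and IgM together, had a single probe set, 1424305_at. The 3 NZB_W arrays read 6.06, 5.20 and 6.02, and the 2 NZW arrays 4.76 and 3.59. All NZB_W arrays were above both NZW arrays, but both groups were spread widely, and NZW array 2 was the only array under its median. The means were 5.76 ± 0.48 (SD, n = 3) and 4.18 ± 0.82 (SD, n = 2), and the difference was 1.58 (SE 0.46, 95% interval 0.37 to 2.79, limma adjusted p = 0.847). This was the largest difference among the members, and 0.171% of tested probe sets had a larger one in the same direction. The size of the difference depends on NZW array 2, where Jchain was dim. Without that array the difference was 1.001, and without it and NZB_W array 3 it was 0.87.

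Jchain ordered the arrays differently from Igha within the NZB_W group, since NZB_W array 2 was its lowest NZB_W array and the highest one of Igha 1421653_a_at. The genes closest to Jchain in profile over the 5 arrays were H2-Ab1 (root mean square difference 0.24), Cybb (0.26) and H2-Ea (0.27). H2-Ab1 and H2-Ea are MHC class II chains of antigen-presenting cells, and Cybb is the catalytic subunit of the phagocyte NADPH oxidase. H2-Ab1 1451721_a_at read 7.32, 6.58 and 7.74 in NZB_W and 6.17 and 5.50 in NZW. Among red cell markers, Alas2 and Slc4a1 also had NZB_W array 2 lowest in its group. Alas2, the erythroid enzyme of heme synthesis, read 9.696, 7.900 and 10.1 in NZB_W and 7.14 and 6.95 in NZW. Hba-a1 1453574_at, under every array median, had NZB_W array 3 lowest instead, at 3.07, 3.01 and 2.92 in NZB_W. Probe sets with several symbols were not used, so this 1 probe set need not stand for Hba-a1 RNA as a whole. Of the 8 red cell genes listed, 3 had a probe set with 1 symbol. Their mean level, with the dim Hba-a1 included, ranged from 5.26 to 7.12 in NZB_W and from 4.59 to 4.74 in NZW. The part of red cell or phagocyte RNA in the Jchain difference was not tested.

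**Figure D2:**
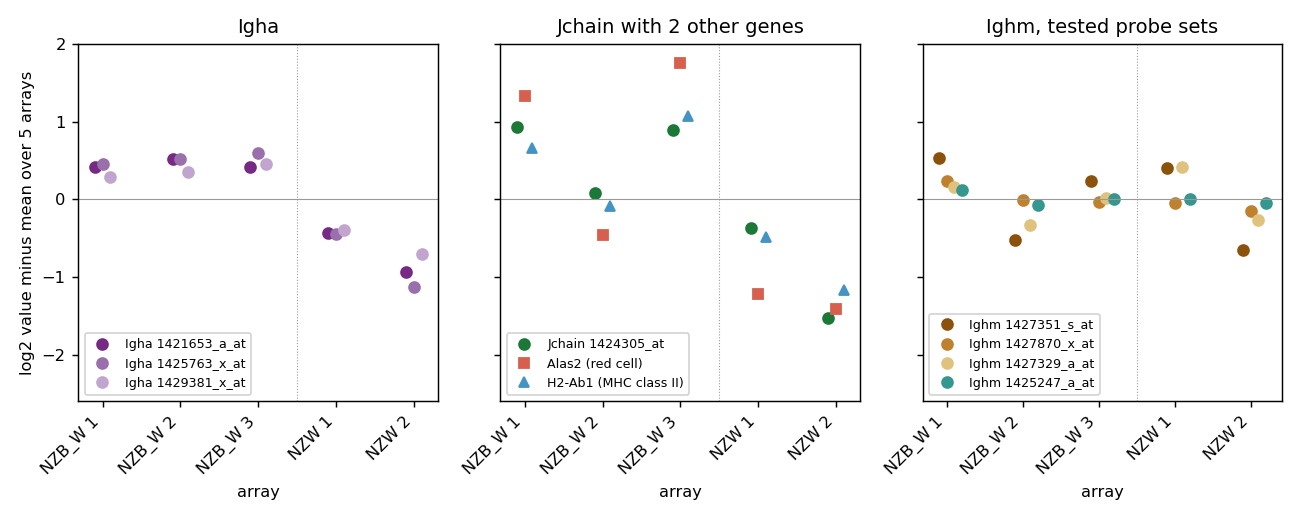
Log2 value minus the mean over the 5 arrays (vertical axis) for each array (horizontal axis, NZB_W left of the dotted line, NZW right). Igha (left) separates the groups with NZB_W arrays close together. Jchain (middle) has NZB_W array 2 nearer to the NZW arrays, as do H2-Ab1 and Alas2. The Ighm probe sets (right) mix the groups, except 1427870_x_at, which separates them by a narrow gap.

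Ighm showed no such separation, apart from a narrow gap on 1 probe set. Its brightest probe set, 1427351_s_at, read 7.11, 6.06 and 6.82 in NZB_W hearts compared with 6.99 and 5.93 in NZW, so the groups covered nearly the same range. The difference of 0.20 (SE 0.46, 95% interval -1.01 to 1.42, limma adjusted p = 0.948) was smaller than the spread within either group (SD 0.54, n = 3, and 0.75, n = 2). Probe set 1427329_a_at read 6.36, 5.87 and 6.22 in NZB_W and 6.61 and 5.93 in NZW, with NZW array 1 highest of all and a difference of -0.12 (95% interval -0.81 to 0.57). In both of these probe sets, array 2 of each group was the lowest of that group. Probe set 1427870_x_at read 6.64, 6.40 and 6.38 in NZB_W and 6.37 and 6.27 in NZW. It was the 1 Ighm probe set whose groups did not overlap, by a narrow gap, with a difference of 0.16 (SE 0.11, 95% interval -0.13 to 0.44, limma adjusted p = 0.883). Probe set 1425247_a_at was nearly flat, at 5.01, 4.82 and 4.89 in NZB_W hearts compared with 4.89 and 4.84 in NZW, and differed by 0.041 (95% interval -0.17 to 0.26).

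The 95% intervals of the 4 tested Ighm probe sets exclude a log2 difference as large as 1 in 3 of them, and the exception is the widely spread 1427351_s_at. The other 7 Ighm probe sets read between 2.74 and 4.18 on all arrays, under every array median. Their differences ran from -0.042 to 0.24, 4 of them above 0, and in none of the 7 were the groups separate. That IgA and IgM differ in their response to the group was not tested.

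The genes closest to Ighm 1427351_s_at in profile were Ctse (root mean square difference 0.20), Klk1 (0.25) and Gng2 (0.26). Ctse is the aspartic protease cathepsin E, Klk1 is tissue kallikrein and Gng2 is a G protein gamma subunit. Ctse 1418989_at read 6.30, 5.58 and 6.25 in NZB_W hearts compared with 5.92 and 5.19 in NZW, and like the Ighm probe set it was lowest on array 2 of each group.

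Mzb1, the secretory chaperone, lay just above the array medians on probe set 1428947_at, at 4.69, 4.89 and 4.84 in NZB_W and 5.05 and 4.66 in NZW. Both the highest and the lowest value came from NZW hearts. The difference was -0.046 (SE 0.14, 95% interval -0.42 to 0.33, limma adjusted p = 0.965). The interval does not reach the size of the Igha or Jchain differences.

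The B cell receptor chains were dim. Cd79a 1418830_at read 4.53, 4.25 and 4.19 in NZB_W and 4.25 in both NZW hearts, with the same value on NZB_W array 2 and both NZW arrays. Cd79b 1417640_at read 4.92, 4.35 and 4.58 in NZB_W and 4.58 in both NZW hearts, again with an identical value on 3 arrays. Such ties were common in the deposited table, where 63.1% of probe sets held the same value on at least 2 arrays. Both genes were highest on NZB_W array 1 and below or level with NZW on one or both of the other NZB_W arrays. The differences were 0.078 for Cd79a and 0.038 for Cd79b, and without NZB_W array 1 they were -0.026 and -0.11.

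CD20 gave no higher reading in nephritic hearts. Ms4a1 1423226_at read 3.82, 3.36 and 3.78 in NZB_W and 4.16 and 3.39 in NZW, the highest value being from a control, and differed by -0.12. The dimmer Ms4a1 1450912_at read 2.43, 2.29 and 2.36 in NZB_W hearts compared with 2.53 and 2.34 in NZW and differed by -0.075. With no filter on dim probe sets, limma's 95% intervals were -0.25 to 0.40 for Cd79a, -0.46 to 0.54 for Cd79b, and -0.92 to 0.68 and -0.30 to 0.15 for the Ms4a1 probe sets. The adjusted p in that fit lay between 0.896 and 0.982. Differences within these intervals are not excluded, the probe sets are dim, and absence of B cells is not shown.

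**Figure D3:**
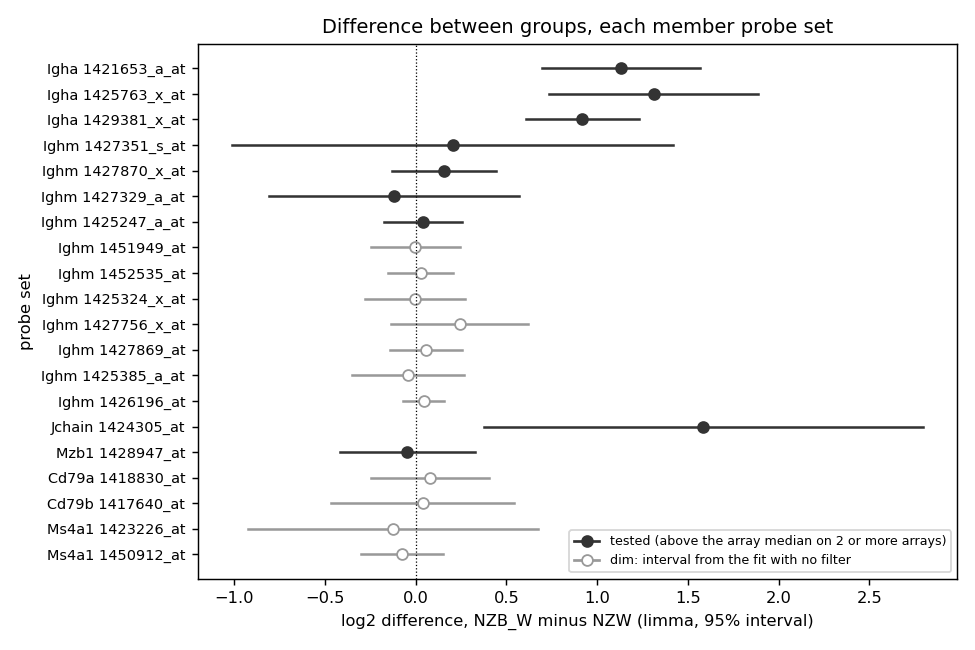
Log2 difference, NZB_W minus NZW (horizontal axis), of each of the 20 member probe sets (vertical axis) with limma's 95% interval. Filled points are the 9 tested probe sets and open points the 11 dim ones, whose intervals come from the fit with no filter. Intervals of the 3 Igha probe sets and of Jchain lie above 0, and those of all others include 0, before any adjustment for multiple testing.

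Side by side, the plasma cell probe sets had a median difference of 0.051 over 16 probe sets, of which 11 are Ighm, and the B cell probe sets one of -0.019 over 4. The median over all 45037 probe sets was 0, and that over the tested ones -0.013. By gene, the median difference was 1.13 for Igha, 1.58 for Jchain, 0.041 for Ighm and -0.046 for Mzb1. Igha and Jchain were the 2 plasma cell genes that separated the groups on every probe set, and Ighm did so on 1 of 11, narrowly. Relative to each probe set's mean, the plasma cell median by array ran from 0.010 to 0.15 over the NZB_W arrays. Over the NZW arrays it ran from -0.15 to -0.000021, so the gap between the groups was narrow. For the 11 Ighm probe sets alone the median ran from -0.020 to 0.13 in NZB_W and from -0.071 to 0.0070 in NZW, with overlap. The B cell median ran from -0.18 to 0.18 in NZB_W and from -0.049 to 0.059 in NZW, so its groups overlapped. The difference between the 2 classes was not tested.

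NZB_W array 1 held the highest value in 11 of the 20 member probe sets, and NZW array 2 the lowest in 11. Over all probe sets those shares were 29.4% and 24.0%, counting ties for each array. Among the 11 dim members NZB_W array 1 was highest in 7, against 41.6% of all dim probe sets. No member had its lowest value on NZB_W array 1 or its highest on NZW array 2.

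No other listed plasma cell gene passed the test. Of 22 listed genes, 21 had a probe set with 1 symbol and 13 were tested, with 7 above and 6 below the NZW level and a median difference of 0.0029, against -0.014 over all 11902 genes tested on their brightest probe set. In either direction 0 passed the adjusted threshold, against 0.0219% of all tested probe sets and 1 of these 11902 genes (0.0084%). An unadjusted p under 0.05 was found for 0 higher and 0 lower, against 2.27% and 2.98% of all tested probe sets. The groups did not overlap in 1 of the 13, Edem1, which was higher in NZB_W, and 0 were separate and lower. Over all tested probe sets those shares were 6.96% and 9.66%. The 4 with the smallest p were Edem1, which helps dispose of misfolded glycoproteins (0.23, SE 0.12), the survival kinase Pim2 (0.13, SE 0.087), Derl3, a channel component of the same disposal route (-0.11, SE 0.087), and the translocon subunit Ssr4 (-0.094, SE 0.084). The other tested Edem1 probe set differed by 0.36 (SE 0.28), and those of Ssr4 by 0.025 and 0.0047. The 95% interval was wide for Sdc1, the plasma cell surface proteoglycan CD138 (-0.042, from -1.24 to 1.16). It was also wide for Prdm1, the factor that drives plasma cell differentiation (0.032, from -1.26 to 1.32). A difference as large as that of Igha 1421653_a_at is therefore not excluded in either gene. Xbp1, which drives the secretory programme and is active in many cell types, differed by 0.0029 at a level of 10.4 to 10.7. Tnfrsf17, the plasma cell receptor BCMA, read 3.61 to 3.98 and was under every array median, as were Irf4 (3.68 to 4.11) and Pou2af1 (2.53 to 3.22); these 6 genes are outside the rule for named genes.

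Other immunoglobulin loci were mostly outside what could be tested. Of 20 listed, 7 had a probe set with 1 symbol and 2 were tested. Igk, the kappa light chain locus, read 4.69 on all 3 NZB_W arrays and 4.69 and 4.44 in NZW on probe set 1452557_a_at, so that its difference of 0.12 (SE 0.093, limma adjusted p = 0.883) came from NZW array 2 alone. Vpreb3 differed by -0.037 (SE 0.12). Ighg3, the IgG3 heavy chain constant region, was dim, at 4.89, 4.60 and 4.60 in NZB_W hearts compared with 4.53 and 4.60 in NZW, and is named outside the rule because it is the 1 IgG constant region with a probe set of its own.

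Among other B cell genes, the members with the smallest p were ones that other immune cells also express. Of 33 listed genes, 30 had a probe set with 1 symbol and 16 were tested, 11 with a difference above 0 and 5 below (45.6% of all tested probe sets lay above 0), with a median difference of 0.12. In 5 of the 16 the groups did not overlap with NZB_W higher, and in 0 with NZB_W lower, against 6.96% and 9.66% of all tested probe sets. In both directions 0 passed the adjusted threshold. At an unadjusted p under 0.05, 3 were higher and 0 lower, against 2.27% and 2.98% of all tested probe sets. Since Cd72 was above the median on the 3 NZB_W arrays only, it entered the test through the group where it is high, and these counts include it. These 3 were Blnk, an adaptor of B cell receptor signalling also found in macrophages (0.54, SE 0.16), Cd72, a C-type lectin co-receptor (1.71, SE 0.52), and the class II invariant chain Cd74 (1.36, SE 0.49), each with a limma adjusted p of 0.883. Cd72 read 5.72, 5.33 and 6.96 in NZB_W and 4.25 and 4.34 in NZW, highest on NZB_W array 3, where the macrophage markers were highest too, and differed by 1.24 without that array. Blnk read 6.06, 5.85 and 6.36 against 5.55 and 5.53, and Cd74 read 9.73, 8.96 and 10.5 against 8.62 and 8.11, so both also peaked on NZB_W array 3. Without that array they differed by 0.41 and 0.98. Cd83, an activation marker, differed by 0.23 (SE 0.11). The part of macrophage RNA in these differences was not tested.

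The other 12 tested genes of this list differed by -0.40 (Bach2) to 1.49 (Cd24a, SE 0.79), and all their 95% intervals include 0. Cd22, an inhibitory B cell receptor, was above the median on all arrays and read 5.50, 5.07 and 5.07 in NZB_W and 4.94 and 4.96 in NZW, without overlap and with a difference of 0.27 (SE 0.16). The groups of Cd40, a costimulatory receptor, did not overlap either, with a difference of 0.11 (SE 0.078). Ly6d and Bank1 lay below the NZW level, by differences of -0.25 (SE 0.24) and -0.19 (SE 0.11). Pax5, the factor that fixes B cell identity, read 4.53 to 4.72 and differed by -0.0069 (SE 0.083). Blk, Cr2, Fcer2a, Cxcr5 and Spib were under every array median, with values of 2.98 to 3.96 and differences of -0.16 to 0.15. The genes of this paragraph were named after their values were seen. T cell and thymus markers were mostly low, with 9 of 13 under every array median. Thy1, Cd3e and Cd4 were the 3 above it on all 5 arrays, against 47.3% of all probe sets. The mean levels of the 13 were 4.21 to 4.34 in NZB_W and 4.16 to 4.27 in NZW. Among 8 epithelial markers 5 were under every array median and 2, Epcam and Sftpc, above it on all arrays. Their mean levels overlapped between the groups (4.12 to 4.22 and 4.09 to 4.20).

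Genes of B cell survival, homing and antibody transport gave 7 tested members of 24 listed (21 with a probe set of 1 symbol). All 7 tested had differences above 0, against 45.6% of tested probe sets, with a median difference of 0.16, and 0 passed the adjusted threshold in either direction. Tnfsf13b, the B cell survival factor BAFF, read 5.96, 6.07 and 6.41 in NZB_W and 5.72 and 5.66 in NZW. The groups did not overlap, and the difference was 0.46 (SE 0.15, limma adjusted p = 0.883), or 0.32 without NZB_W array 3. It was the 1 gene of the 7 with separate groups, against 6.96% of all tested probe sets separate and higher. The chemokine receptor Cxcr4 differed by 0.51 (SE 0.29), but by 0.23 without NZW array 1 and 0.28 without NZB_W array 3. Ccr10, a homing receptor of IgA plasma cells, differed by 0.13 (SE 0.12), and by 0.027 without NZB_W array 1. It was above the median on NZB_W arrays 1 and 2 only, so its place among the 7 rests on the group where it is high. Tgfb1, a factor in switching to IgA, differed by 0.16 (SE 0.19). Pigr, the receptor that carries polymeric IgA across epithelium, read 3.39 to 3.71, under every array median, and is named outside the rule.

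**Figure D4:**
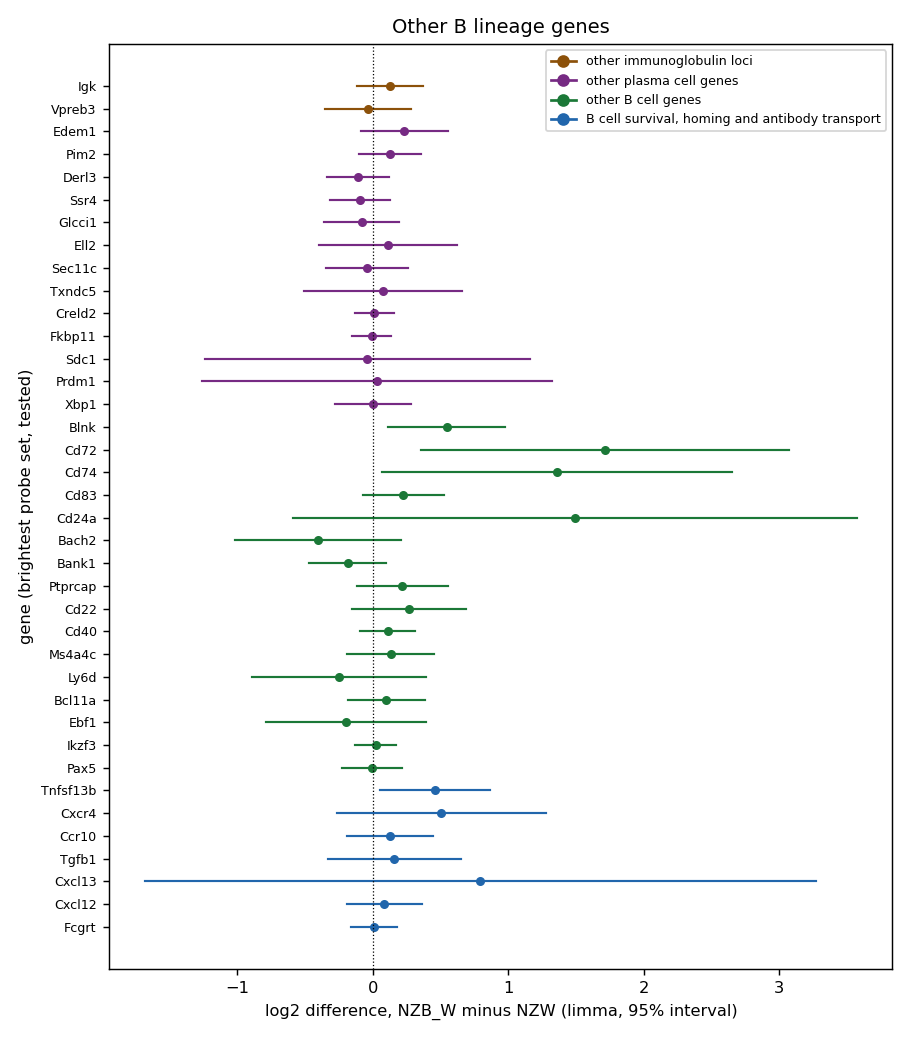
Log2 difference, NZB_W minus NZW (horizontal axis), with limma's 95% interval for each tested gene of 4 lists of other B lineage genes on its brightest probe set (vertical axis), coloured by list. Intervals of Blnk, Cd72, Cd74 and Tnfsf13b lie above 0 before adjustment, and those of the plasma cell list include 0.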

How the data were processed

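Whole-heart RNA (6 µg of total RNA per array) was hybridized to Affymetrix Mouse Genome 430 2.0 arrays. The deposited values are log2 expression levels, 1 per probe set and array; per the submitters' processing notes, Partek, RMA and GCRMA were involved, with no version or role given. RMA and GCRMA remove background differently, which affects dim probe sets most. No scanner files were used here, so brightness against the array median stands in for detection. Of 45101 probe sets, 64 controls were left out; 34945 carry 1 symbol, and updating through Entrez identifiers (RefSeq, GRCm38.p6) changed 0. Columns of no sample numbered 0.

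Values were tested as deposited in R 4.3.3 by lmFit and eBayes of limma 3.58.1 (two-sided, without covariates, 3 NZB_W against 2 NZW arrays) over 22819 probe sets above their array's median on at least 2 arrays, with Benjamini-Hochberg adjustment and a threshold of 0.05. SE is limma's moderated standard error. Lists used each gene's brightest probe set. The script was tested on simulated data. Named genes are the members, up to 4 tested genes per list with the smallest p, and the 3 nearest profiles to Igha, Jchain and Ighm. The members and lists were chosen with earlier results of these data known. Alternatives covered normalization, the filter, the variance model, array weights, a block on replicate number and leaving out arrays. Figures used matplotlib 3.10.9.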

Additional observations from a re-analysis of the deposited data

How the results depend on the processing

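The direction of the 3 Igha probe sets and of Jchain was the same under every alternative that gave a value, and no member passed the adjusted threshold under any of them. The Igha differences ranged from 0.72 to 1.65 (adjusted p from 0.163 to 1) and that of Jchain from 0.87 to 2.17 (adjusted p from 0.547 to 1). Where each group kept at least 2 arrays, members higher at an unadjusted p under 0.05 numbered 3 or 4. The members tested were 8, 9 or 20 by setting. Over all tested probe sets the share so called ran from 1.85% with no filter to 3.39% with array weights. Under the filter on all arrays Jchain was not tested.

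The 5 probe sets past the threshold over the whole table became 8 with median centring, 2 with no filter on dim probe sets, 2 with the filter on all arrays, 16 with array weights, 1 with 1 probe set a gene, 12 at an adjusted p under 0.1 and 1199 at an unadjusted p under 0.05. Leaving out 1 array gave 0 to 2, and leaving out NZB_W array 3 and NZW array 2 gave 0; these settings have fewer samples. The replicate block, on 4 arrays, gave 0. The replicate numbers share no stated batch, and deviations of same-numbered arrays from their group means correlated at -0.030 and 0.035, so the numbers were not taken as pairs.

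Small differences changed sign. With array weights Ighm 1425247_a_at differed by -0.0068 and Ighm 1427351_s_at by -0.15. Without NZB_W array 3 and NZW array 2, Ighm 1427351_s_at differed by -0.41, Vpreb3 by 0.049 and Tgfb1 by -0.14. With the replicate block Vpreb3 differed by 0.058. Leaving out 1 array at a time gave -0.011 to 0.086 for Ighm 1425247_a_at, -0.46 to 0.22 for 1427329_a_at, -0.33 to 0.74 for 1427351_s_at, -0.24 to 0.14 for Mzb1, -0.12 to 0.058 for Vpreb3 and -0.00025 to 0.32 for Tgfb1. It gave 0.017 to 0.18 for the plasma cell median and -0.11 to 0.070 for the B cell median, -0.51 to 0.26 for Ms4a1 1423226_at and -0.17 to 0.021 for 1450912_at, whose ends both come from leaving out an NZW array, and -0.026 to 0.14 for Cd79a and -0.11 to 0.17 for Cd79b, both negative only without NZB_W array 1. Without changing sign, Cxcr4 ranged from 0.23 to 0.78, Ccr10 from 0.027 to 0.18, Cd83 from 0.11 to 0.34, Pim2 from 0.042 to 0.21, Edem1 from 0.13 to 0.29 and Ighm 1427870_x_at from 0.073 to 0.21. The cause of these shifts was not tested. The 4 B cell probe sets were dim, and 2 of them, those of Cd79a and Cd79b, also held tied values between arrays.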
